A study of Mus musculus with 4 samples.

Results

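A list of 33 genes of the interferon response and of nucleic acid sensing was followed in mouse erythroblasts, the nucleated precursors of red cells. Members were found by symbol, older names included (Ddx58 for Rigi, Mb21d1 for Cgas, Tmem173 for Sting1), among probe sets annotated to that gene alone, and the brightest probe set by its mean over the 4 arrays stood for the gene. This gave 31 of the 33 genes, out of 19938 genes named in this way. Isg15 was represented only by a probe set shared with another symbol, and Ifi44 by none, so no value is given for either. No filter on low values was applied in the main fits, so that all 31 entered every count made from them.

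Interferons are secreted proteins that cells release when they sense foreign or misplaced nucleic acid. They act through paired receptors and the kinases JAK1 and TYK2 on a complex that contains STAT2 and IRF9 and binds a short promoter element, the interferon-stimulated response element (ISRE), switching on a shared set of antiviral genes. The sensors of that system read RNA (the proteins encoded by Rigi and Ifih1) or DNA (cGAS, which signals through STING1), and they are themselves interferon-induced to varying degrees. In bone marrow, interferon is known for its action on blood stem cells and red cell precursors, and DNA left in the cell after damage is one known trigger of the DNA sensing arm.

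The cells were bone marrow cells sorted for the red cell surface marker Ter119 and the transferrin receptor CD71. Arrays came from 2 samples labelled WT and 2 labelled Parp-2-/-, all on a C57BL/6 strain background and with no treatment named. Parp2 encodes a poly(ADP-ribose) polymerase that is activated by DNA breaks. Within each genotype the titles end in 1 or 2, and the labels do not say what this number marks. It is called the title number below, and "wild type 1" means the wild type array whose title ends in 1. The titles also open with running numbers, wild type taking 1 and 2 and the knockout 3 and 4, so that any order they mark and the genotype cannot be told apart. Age, sex and pooling are not stated in the labels. Nothing there says that each array stands for an animal of its own, so the p-values speak only for the spread among these 4 samples, part of which may be technical.

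Values are deposited log2 expression values, so that a difference of 1 is a 2-fold change. Array medians over 23410 annotated probe sets lay between 5.23 and 5.49. Knockout 2 stood apart, with an interquartile range of 1.98 against 2.62 to 2.94 on the other 3 arrays. Parp2 itself read 8.24 and 7.65 on wild type 1 and 2 and 7.11 and 6.70 on knockout 1 and 2, a difference of -1.04 ± 0.40 (SE) that did not pass the test (limma adjusted p = 0.99995). Of 15 erythroblast markers 13 had a probe set of their own, and 12 of these lay between 8.81 and 13.01 on every array, the exception being the embryonic globin gene Hbb-y. In bulk samples, fewer cells of a type and less RNA per cell cannot be told apart.

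The promoters of the members are shown first because the ISRE is the element, described above, through which interferon switches on antiviral genes. RefSeq promoter windows (assembly GRCm38.p6, 250 bases before to 50 after the transcript start) were at hand for 24 of the 33 genes. They were searched on both strands for the ISRE core, which is GAAA, any 2 bases and GAAA again, or on the other strand TTTC, any 2 bases and TTTC. The core was found for 13 of the 24 genes (54.2%), against 3.99% of all 27025 genes with such a window and 3.44% of all 32851 windows. The second interferon element, the gamma-activated site TTCNNNGAA, which reads the same on both strands, was found for 6 of the 24 (25.0%) against 9.55% of all genes. The 2 motifs overlap by 3 bases in the window of Bst2 only. A match describes these letters and is not evidence of binding.

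The 250 bases upstream of the start are printed for the 3 members with ISRE cores that were higher on the arrays numbered 2 by the widest margins relative to their spread, Rsad2, Oas3 and Ifit1, and for Ifi205, which was lower there. Capitals mark the ISRE core on either strand, and each sequence reads 5′ to 3′ on the gene's strand. Rsad2 lies on the minus strand at chr12:26456453-26456702, Oas3 on the minus strand at chr5:120777660-120777909, Ifit1 on the plus strand at chr19:34640639-34640888 and Ifi205 on the minus strand at chr1:174031756-174032005.
Rsad2: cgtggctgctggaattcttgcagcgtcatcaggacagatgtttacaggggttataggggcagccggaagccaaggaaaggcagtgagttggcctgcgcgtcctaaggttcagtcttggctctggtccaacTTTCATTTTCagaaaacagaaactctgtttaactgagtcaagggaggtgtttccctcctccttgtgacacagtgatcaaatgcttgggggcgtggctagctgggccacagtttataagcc
Oas3: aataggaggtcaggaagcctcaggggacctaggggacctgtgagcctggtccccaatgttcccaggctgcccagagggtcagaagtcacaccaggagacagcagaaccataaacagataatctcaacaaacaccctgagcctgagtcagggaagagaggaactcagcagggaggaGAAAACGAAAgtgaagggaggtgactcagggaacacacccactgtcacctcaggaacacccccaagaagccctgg
Ifit1: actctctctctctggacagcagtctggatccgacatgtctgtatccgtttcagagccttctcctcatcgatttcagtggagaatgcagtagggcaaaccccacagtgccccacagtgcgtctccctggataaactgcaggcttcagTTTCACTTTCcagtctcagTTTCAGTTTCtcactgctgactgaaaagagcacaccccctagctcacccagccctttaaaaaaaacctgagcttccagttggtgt
Ifi205: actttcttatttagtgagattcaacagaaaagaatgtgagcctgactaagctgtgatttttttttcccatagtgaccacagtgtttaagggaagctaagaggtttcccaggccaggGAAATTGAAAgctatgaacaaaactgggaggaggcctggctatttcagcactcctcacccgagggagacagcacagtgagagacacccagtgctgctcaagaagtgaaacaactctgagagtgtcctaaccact
Counted from the transcript start, Rsad2 held its core at -120 to -111 and Oas3 at -75 to -66. Ifit1 held 2 cores, at -104 to -95 and -85 to -76. Ifi205 held 1 core at -134 to -125 and a second, not printed, at 24 to 33 after the start. Of the 22 members with both a window and a value, the 12 with an ISRE core had a median difference between title numbers (2 minus 1) of +0.65 and the 10 without it one of +0.24, while the genotype medians (knockout minus wild type) were -0.02 and -0.15.

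The first comparison asked whether loss of Parp2 was accompanied by a change in this gene set. None of the 31 members passed the test by genotype. Of the 31, 12 had higher and 19 lower means in the knockout (56.4% of all probe sets were higher), a split of 6 and 25 after centring and of 15 and 16 after repeated quantile normalisation. The differences ran from -0.96 for Rigi to +0.96 for Rsad2, and the median was -0.06, against +0.06 over all annotated probe sets. At an adjusted p under 0.05 limma called none of the 23410 annotated probe sets (0.0%), and 486 (2.08%) had an unadjusted p under 0.05, among them 2 members, Sting1 and Rigi. Both knockout arrays lay on the same side of both wild type arrays for 5 members (16.1%), against 25.0% of all probe sets. They lay above for 1 member and below for 4, against 15.6% and 9.42%. With 2 arrays against 2, a two-sided exact permutation test cannot give a p below 0.333.

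The 2 members of lowest p by genotype were a DNA and an RNA sensing gene. Sting1, the adaptor that relays the cGAS signal from the endoplasmic reticulum (probe set 10458314), read 6.59 and 6.46 in wild type 1 and 2 and 5.73 and 5.43 in knockout 1 and 2. Neither knockout value reached the lower of the wild type values. The difference was -0.95 ± 0.36 (SE, 2 arrays per genotype), a 1.93-fold lower level, at a limma p of 0.0349 before adjustment and an adjusted p of 0.99995. Rigi, which encodes the sensor of RNA with a 5′ triphosphate (probe set 10512067), read 6.18 and 5.99 in wild type and 5.42 and 4.83 in the knockout, again without overlap. Its difference was -0.96 ± 0.39 (SE), or 1.94-fold, with a limma p of 0.0437 before adjustment and an adjusted p of 0.99995. For both genes the knockout was lower within each title number, by 0.87 and 1.03 for Sting1 and by 0.76 and 1.16 for Rigi. With 1 array left out in turn the difference lay between -1.09 and -0.80 for Sting1 and between -1.26 and -0.66 for Rigi.

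A further 3 members did not overlap between the genotypes. Zbp1, a sensor of Z-form nucleic acid, read 6.70 and 5.36 in wild type and 5.27 and 5.25 in the knockout. Wild type 1 alone was high, and the other 3 arrays lay close together. Irf1, a transcription factor induced by interferon-gamma, read 5.34 and 5.75 in wild type and 5.21 and 5.09 in the knockout, a difference of -0.39. It is the member with a second probe set of its own, which read 4.71 and 5.36 in wild type and 5.20 and 5.21 in the knockout, so that the probe sets disagree in sign. Mx2, an interferon-induced GTPase, read 3.09 and 3.29 in wild type and 3.51 and 4.03 in the knockout, and is the only one of these 5 members that was higher; it lay between the 1.55 and 9.47 percentiles of all annotated probe sets. When arrays were centred on their medians or quantile-normalised again, the groups of Zbp1 overlapped, while Sting1, Rigi, Irf1 and Mx2 stayed without overlap. Centring added Oas1a, Ifi27 and Ifi35, all lower, making 7 members (22.6%, against 26.0% of all probe sets). The repeated normalisation added Oasl1 (higher) and Bst2 (lower), making 6 (19.4%, against 27.7%).

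Markers of other blood cells differed in mean level between the genotypes, none past the test. Neutrophil markers had lower means for 18 of 18 genes, with summed unlogged signals of 39242 to 48663 in wild type and 21290 to 27884 in the knockout. Monocyte and macrophage markers were lower for 12 of 15, with summed signals of 6331 to 6387 and 3574 to 3860. Bright genes weigh most in such sums, here Lyz2 at 10.67 to 12.05. The medians of that list overlapped, at 6.65 and 7.72 in wild type and 6.19 and 6.79 in the knockout. B cell markers were lower for 10 of 12, with sums of 1357 to 1912 and 674 to 830.0. T and NK cell markers were lower for 9 of 11, with sums of 754 to 1079 and 423 to 518. Nkg7, the brightest of them, weighed most in these sums. The list medians overlapped, at 4.67 and 5.37 in wild type and 4.78 and 5.22 in the knockout. The mast cell, basophil and eosinophil list was lower for 9 of 11, with sums of 1032 to 2179 and 630 to 631. Megakaryocyte markers went the other way for 6 of 7, with a median of +0.45 and sums of 534 to 708 and 468 to 834. Plasmacytoid dendritic cell markers, from the blood cell best known for making interferon, were lower for 8 of 9, with sums of 915 to 944 and 757 to 823. Their medians overlapped, at 5.76 and 6.25 in wild type and 5.80 and 5.39 in the knockout. Of the defining genes, Adgre1 (F4/80, macrophages) read 5.87 and 6.06 in wild type and 4.69 and 5.002 in the knockout, and the plasmacytoid gene Siglech 5.19 to 6.25 over the 4 arrays. Sting1 is known to be expressed in myeloid and lymphoid cells too, and the part of these cells in the members' differences was not tested.

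**Figure D1:**
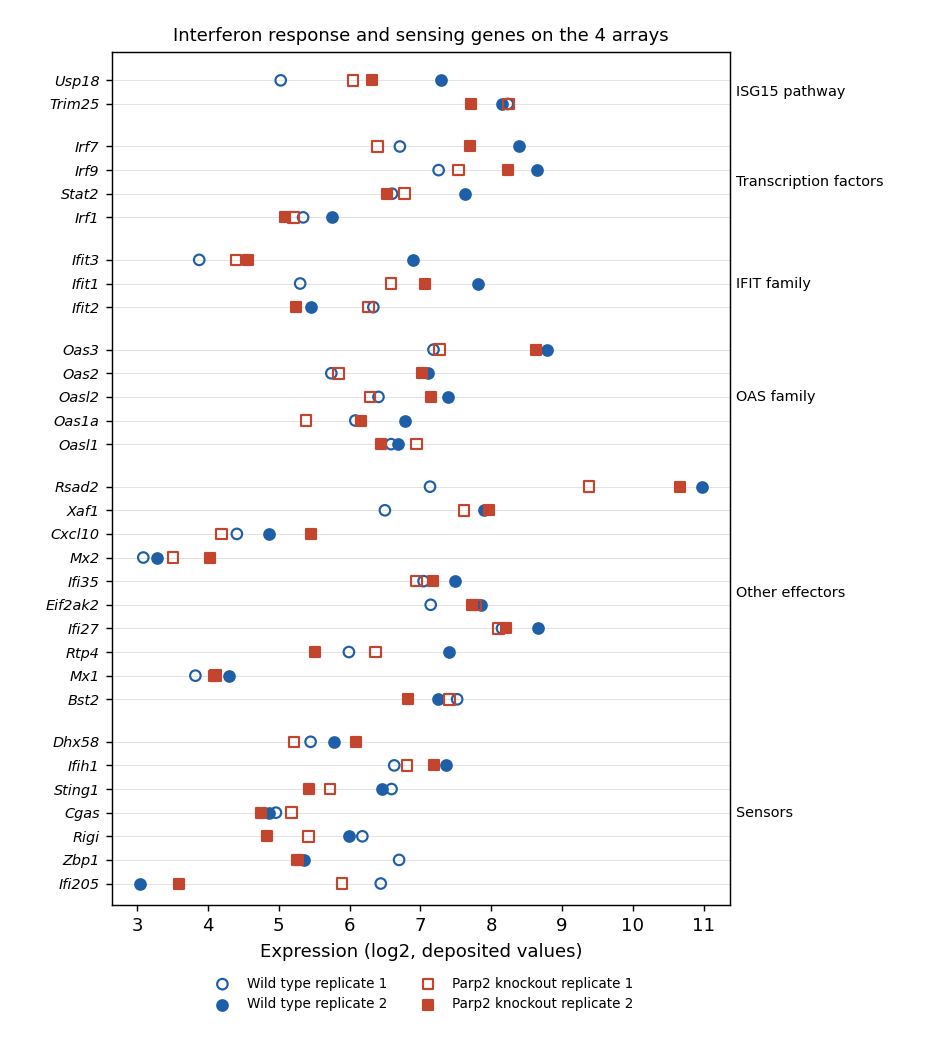
Log2 expression (horizontal axis) of the 31 members on the 4 arrays, grouped by role, with open symbols for arrays numbered 1 and filled symbols for arrays numbered 2, circles for wild type and squares for the Parp2 knockout. Rsad2 spans 7.14 to 10.97, Ifi205 is low on both arrays numbered 2, and for Sting1 and Rigi both knockout arrays are the lower pair.

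The second comparison followed the title number, which both genotypes carry, by a fit of the 2 arrays numbered 2 against the 2 numbered 1. Here the interferon-induced antiviral genes were mostly higher on the arrays numbered 2. Of the 31 members 22 had higher and 9 lower means there (56.7% of all probe sets were higher), and 16 were higher without overlap (51.6%, against 26.2% of all probe sets). Another 5 were lower without overlap (16.1%, against 22.2%), making 21 in all against 48.3%. A difference of at least +1 was found for 8 members (25.8%, against 3.4%), and one of -1 or less for 1 (3.23%, against 8.82%). In both genotypes alike, 17 members were higher on the array numbered 2 (against 33.7%) and 8 lower (against 27.4%). The median was +0.36 over the members and +0.08 over all annotated probe sets.

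Limma called 724 of 23410 probe sets by title number (3.09%) and 2 of the 31 members, Oas3 and Ifi205. At an unadjusted p under 0.05 there were 12 members, against 17.9% of all probe sets. With genotype added to the fit as a replicate block, 6 more passed, Usp18, Irf7, Ifit1, Ifit3, Oas2 and Rsad2. That fit called 2121 of the 23410 probe sets. It left 1 residual degree of freedom and used the same standard deviation, 0.41, for every probe set. A pass there thus rests on the size of the difference alone and not on the spread of the gene itself. The calls depended on the arrays and on the scaling. The count of members was 1 without wild type 1, where Ifi205 remained, 5 without knockout 1, where Oas3 was lost, and 0 without wild type 2 or without knockout 2. It was also 0 when arrays were centred on their medians, which moved the median of all probe sets by title number from +0.08 to -0.10, and 0 after a repeated quantile normalisation. Centring gave 11 members higher and 7 lower without overlap, against 16.2% and 31.6% of all probe sets. The repeated normalisation gave 18 and 4, against 24.1% and 23.3%.

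The oligoadenylate synthetases, which make the 2-5A second messenger that activates RNase L, showed the pattern most evenly in both genotypes. Oas3 (probe set 10533213) read 7.18 and 7.27 on wild type 1 and knockout 1, and 8.79 and 8.64 on wild type 2 and knockout 2. Both arrays numbered 2 were higher, by 1.60 in wild type and 1.36 in the knockout. The difference was +1.48 ± 0.31 (SE, 2 arrays per number), a 2.80-fold higher level (limma adjusted p = 0.0386). Oas2 read 5.74 and 5.84 on the arrays numbered 1 and 7.11 and 7.02 on those numbered 2. Its difference of +1.27 ± 0.31 did not pass in the main fit, without a block (limma adjusted p = 0.0582). It passed with the replicate block, where all probe sets share the same spread, and when the probe sets of a gene were averaged. Oas3 and Oas2 stayed separated by number after centring and after repeated normalisation. Oasl2 read 6.41 and 6.29 at number 1 and 7.38 and 7.16 at number 2, without overlap, and did not pass (+0.92). Oas1a read 6.08 and 5.39 against 6.78 and 6.17, without overlap as deposited but with overlap after centring (+0.74). Oasl1, a catalytically inactive relative, read 6.45 to 6.94 on the 4 arrays, and its difference of -0.20 turned to +0.12 after repeated normalisation.

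Rsad2 encodes viperin, an enzyme that makes a chain-terminating ribonucleotide (probe set 10399710). It read 7.14 on wild type 1, 10.97 on wild type 2, 9.38 on knockout 1 and 10.66 on knockout 2. Wild type 1 was the lowest array, and both arrays numbered 2 were above both numbered 1. By title number the difference was +2.56 ± 0.59 (SE), or 5.90-fold, at a limma adjusted p of 0.0501 without a block. It passed with genotype as a replicate block, where all probe sets share the same spread. The difference was 3.84 in wild type and 1.28 in the knockout. By genotype it was +0.96 ± 1.15, and it depended on the wild type array used. It was +2.88 without wild type 2 and -0.95 without wild type 1, each with 1 wild type array left.

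Members of the IFIT family, which bind viral RNA ends and lie next to each other on chromosome 19, split by direction. Ifit1 read 5.30 on wild type 1, 7.81 on wild type 2, 6.59 on knockout 1 and 7.07 on knockout 2, a difference by number of +1.49 ± 0.46. Ifit3 read 3.88, 6.89, 4.40 and 4.56 in the same order, so that wild type 2 alone was high and the knockout arrays differed by 0.17; its number groups overlapped after centring and after repeated normalisation. Ifit2 went the other way in both genotypes, with 6.34 and 6.27 on the arrays numbered 1 and 5.45 and 5.25 on those numbered 2, a difference of -0.95 ± 0.31 (limma adjusted p = 0.132) that kept its sign under both scalings.

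Of the transcription factors of the response, Irf7, the factor that amplifies interferon production, read 6.71 and 6.40 on the arrays numbered 1 and 8.39 and 7.70 on those numbered 2. Its difference of +1.49 ± 0.35 did not pass in the main fit, without a block (limma adjusted p = 0.0529). With genotype as a replicate block, where all probe sets share the same spread, it passed. Irf9, the DNA-binding subunit of the complex with STAT2, read 7.26 and 7.54 against 8.64 and 8.24, higher without overlap by 1.04 ± 0.33. Stat2 read 7.62 on wild type 2 and 6.53 to 6.77 on the other 3 arrays. Usp18, which strips ISG15 from proteins and dampens receptor signalling, read 5.03 on wild type 1, 7.30 on wild type 2, 6.05 on knockout 1 and 6.31 on knockout 2, a difference of +1.26 whose groups overlapped after centring. Trim25, the ubiquitin ligase that activates the sensor encoded by Rigi, read 8.23 and 8.25 on the arrays numbered 1 and 8.16 and 7.71 on those numbered 2. Its difference of -0.30 turned to +0.14 after repeated normalisation.

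Ifi205 was lower on the arrays numbered 2, as were Ifit2 and Bst2. It belongs to a cluster of closely related genes for DNA-binding proteins of the IFI200 family, and whether its probe set also reads relatives was not tested. Ifi205 (probe set 10360406) read 6.44 and 5.90 on wild type 1 and knockout 1 but 3.05 and 3.59 on wild type 2 and knockout 2. The arrays numbered 2 were lower in both genotypes, by 3.39 and 2.31. The difference was -2.85 ± 0.35 (SE, limma adjusted p = 0.0125). On the arrays numbered 2 Ifi205 stood at the 2.02 and 4.33 percentiles of all annotated probe sets, among the dimmest, so that its level there may be no more than background and no fold is given. With 1 array left out the difference lay between -3.12 and -2.58, and it was -3.04 after centring and -2.84 after repeated normalisation. By genotype the mean levels differed by 0.00.

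The remaining effectors differed less. The pro-apoptotic gene Xaf1 read 6.50 on wild type 1 and 7.61 on knockout 1, and 7.90 and 7.97 on wild type 2 and knockout 2. The chemokine gene Cxcl10 was higher on the arrays numbered 2, at 4.86 and 5.45 against 4.41 and 4.20. Rtp4, a chaperone of receptor transport, read 7.41 on wild type 2 and 5.52 to 6.37 elsewhere. Eif2ak2, which encodes the double-stranded RNA kinase PKR, read 7.15 on wild type 1 and 7.72 to 7.86 elsewhere. Xaf1 and Cxcl10 were thus separated by number, Rtp4 and Eif2ak2 were not. Ifi27 read 8.15 and 8.10 at number 1 and 8.65 and 8.21 at number 2, and Ifi35 7.04 and 6.95 against 7.48 and 7.17. Both separated by small amounts, +0.31 and +0.33, and overlapped after centring. The virus tether gene Bst2 read 7.52 and 7.41 against 7.25 and 6.83, a difference of -0.42 that turned to +0.024 after the repeated normalisation. Mx1, which carries a disabling deletion in C57BL/6 mice as a known strain trait, lay between 3.82 and 4.29.

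The other sensors differed less by title number, and none of them passed the test. Ifih1, the sensor of long double-stranded RNA, read 6.63 and 6.81 on the arrays numbered 1 and 7.37 and 7.19 on those numbered 2. Dhx58, a regulator of both RNA sensors, read 5.45 and 5.22 against 5.78 and 6.09. Both were higher without overlap, at +0.56 and +0.60, and neither passed the test. Cgas read 4.96 and 5.18 at number 1 and 4.86 and 4.75 at number 2, lower without overlap (-0.27). Zbp1, whose values are given above, differed by -0.68 with overlap as deposited, and by -0.87 after centring and -0.78 after repeated normalisation without overlap. Neither Sting1 (-0.21) nor Rigi (-0.39) was separated by number.

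**Figure D2:**
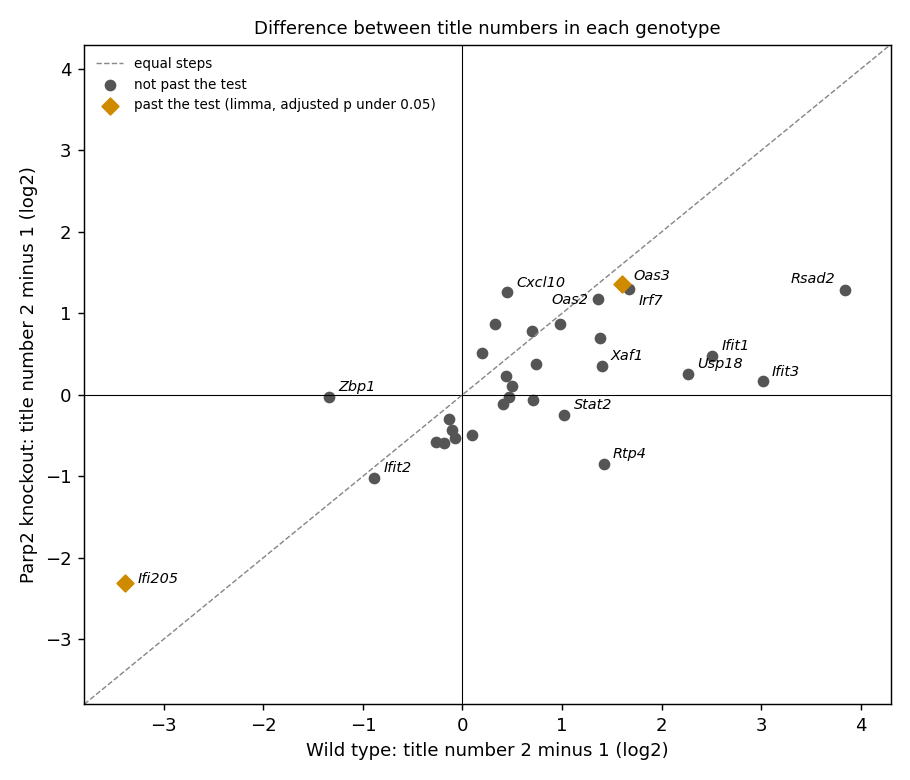
Difference between the arrays numbered 2 and 1 (log2) in wild type (horizontal axis) and in the Parp2 knockout (vertical axis) for the 31 members, with a dashed line where both are equal and diamonds for the 2 members past limma's test. Oas3, Oas2 and Irf7 lie near the line, while Rsad2, Ifit3, Ifit1 and Usp18 have larger differences in wild type, and Ifi205 and Ifit2 are negative in both genotypes.

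The last comparison set the genotypes against each other within each title number, 1 array against 1 and thus without a test. At number 1 the knockout was higher for 17 of the 31 members (against 49.9% of all probe sets), with a median of +0.09. At number 2 it was higher for 5 and lower for 26, with a median of -0.31, against a median of +0.11 over all probe sets, of which 56.4% were higher. For 15 members (48.4%, against 22.4% of all probe sets) the knockout was higher at number 1 and lower at number 2, and the reverse held for 3 (9.68%, against 28.9%). Among the 15 were Rsad2 (+2.24 at number 1 and -0.31 at number 2), Ifit1 (+1.29 and -0.75), Usp18 (+1.02 and -0.98), Ifit3 (+0.52 and -2.33), Rtp4 (+0.37 and -1.89) and Stat2 (+0.17 and -1.10). For 10 of the 31 members (32.3%, against 6.86% of all probe sets) wild type held both extremes, lowest on wild type 1 and highest on wild type 2.

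These counts differed between the scalings, and the part of the narrow range of knockout 2 was not tested. After centring 4 members were higher at number 2 (47.2% of all probe sets), the median there was -0.46, 16 members crossed from higher to lower (51.6%, against 27.5%), and 10 were lowest on wild type 1 and highest on wild type 2 (32.3%, against 6.75%). After the repeated quantile normalisation of all 4 arrays 12 members were higher and 19 lower at number 2 (54.5% of all probe sets were higher), and the median there was -0.04. Then 9 members crossed (29.0%, against 23.1%), a share near the background, and 6 were lowest on wild type 1 and highest on wild type 2 (19.4%, against 8.16%). The values of Rsad2 were then +2.25 and -0.01.

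**Figure D3:**
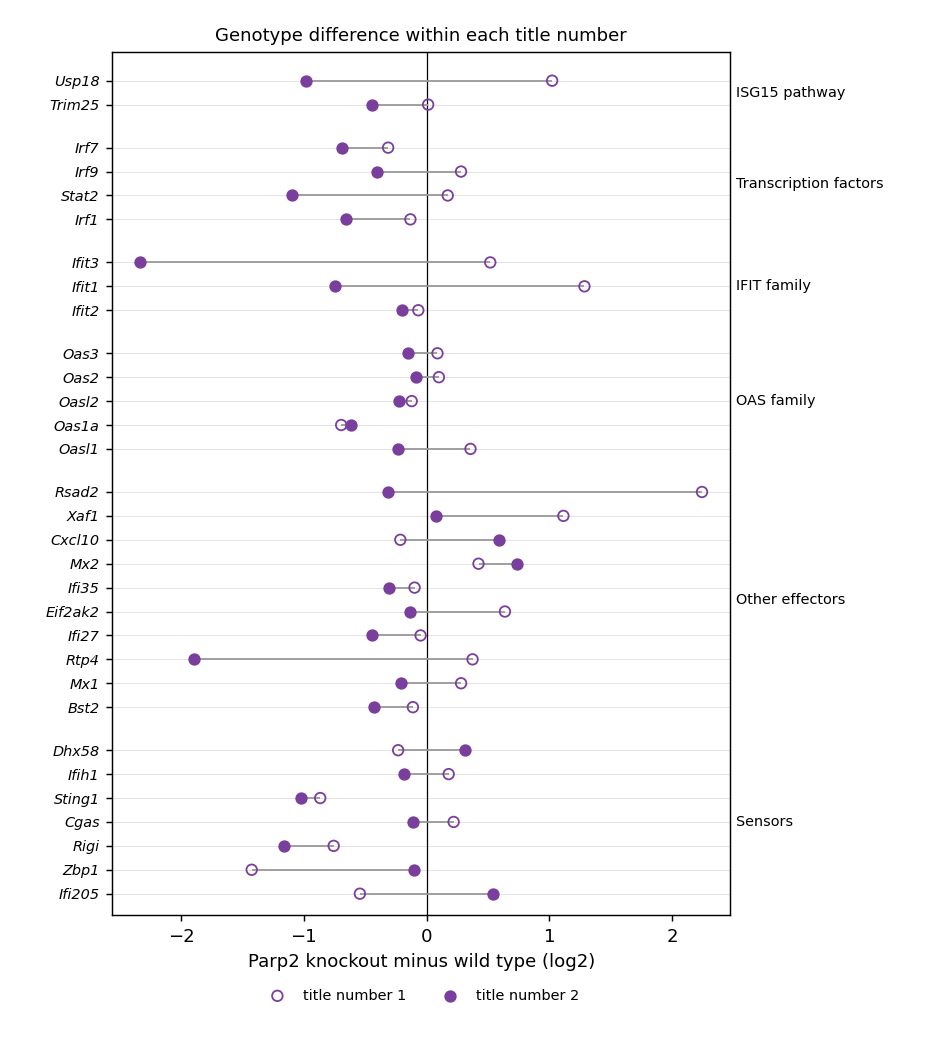
Knockout minus wild type (log2, horizontal axis) for each of the 31 members at title number 1 (open circles) and number 2 (filled circles), 1 array against 1, joined by a grey line, with 0 marked. Rsad2, Ifit1 and Usp18 lie above 0 at number 1 and below it at number 2, while Sting1 and Rigi lie below 0 at both.

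A wider list of 65 other pathway genes, of which 57 had a value, was then read. By genotype 0 passed, and 37 were lower and 20 higher (56.4% of all probe sets were higher). The median was -0.18, against +0.06 over all annotated probe sets. Without overlap 12 were lower and 3 higher, against 9.42% and 15.6% of all probe sets. Of the receptor genes, Ifnar2 read 9.71 and 9.54 in wild type and 9.10 and 9.29 in the knockout, and Ifngr1 7.35 and 7.14 against 7.03 and 6.38, lower without overlap and not past the test. The genes of lowest p were Trim30a (-1.35), Psmb8 (-1.13), a subunit of the immunoproteasome, and the GTPase gene Irgm1 (-0.77), all lower without overlap. Of the 6 ligand genes measured, 4 had higher and 2 lower means in the knockout. Ifnb1 and Ifnl2 were higher without overlap and not past the test. Ifnb1 read 3.74 and 3.65 in wild type and 4.03 and 4.39 in the knockout, and Ifnl2 6.70 and 7.79 against 7.85 and 8.07. Ifna4 read 3.86 to 4.33 over the 4 arrays.

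By title number 31 of the 57 were higher and 26 lower (56.7% of all probe sets were higher). The median was +0.03, against +0.08 over all annotated probe sets. Without overlap 16 were higher and 15 lower, against 26.2% and 22.2% of all probe sets. Of the 57, 1 passed, against 3.09% of all probe sets. It was Ifitm2, a membrane protein that blocks viral entry. It read 11.02 and 10.32 on the arrays numbered 1 and 8.87 and 8.77 on those numbered 2, a difference of -1.85 ± 0.35 (limma adjusted p = 0.0305). Interferon-induced genes thus did not all go one way by number. Of the 20 measured genes of the further induced list 13 were lower and 7 higher, with Lgals3bp (-1.85), Ly6e (-1.08) and Samd9l (-1.02) at one end and Parp14 (+1.26) and Sp100 (+0.80) at the other. Rnaseh2c, a subunit of the nuclease that removes RNA from DNA hybrids, was lower by 1.22 and did not pass (limma adjusted p = 0.0662).

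Cell markers also followed the title number. Erythroblast markers were mostly higher on the arrays numbered 2, among them the membrane gene Epb42 (+1.75, limma adjusted p = 0.0477) and the heme synthesis gene Alas2 (+1.51), and of the 13 erythroblast markers 9 were higher and 0 lower without overlap, against 26.2% and 22.2% of all probe sets. Their summed unlogged signals were 14392 and 20177 at number 1 and 33712 and 30291 at number 2. Megakaryocyte markers were higher for 7 of 7, 5 of them without overlap, with sums of 468 to 534 at number 1 and 708 to 834 at number 2. Of these the platelet chemokine gene Ppbp passed the test (+2.12, limma adjusted p = 0.0493). In the monocyte and macrophage list 7 of 15 were higher without overlap and 2 lower, against the same 26.2% and 22.2%. Vcam1 and Siglec1, known from the macrophages of erythroblast islands, and the mannose receptor gene Mrc1 passed the test. Vcam1 read 5.95 and 6.65 at number 1 and 8.26 and 8.74 at number 2 (limma adjusted p = 0.0229), Mrc1 differed by +2.00 and Siglec1, itself an interferon-induced gene, by +1.59. The summed signal of that list was 3574 to 6331 at number 1 and 3860 to 6387 at number 2, so that the sums overlapped. Bright genes weigh most in a sum, here Lyz2, at 12.05 and 11.23 against 11.79 and 10.67. The list medians did separate, at 6.65 and 6.19 against 7.72 and 6.79. For plasmacytoid dendritic cell markers the sums were 757 to 915 and 823 to 944, and for neutrophil markers, lower for 17 of 18, they were 27884 to 48663 and 21290 to 39242. The part of these markers in the members' difference was not tested.

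**Figure D4:**
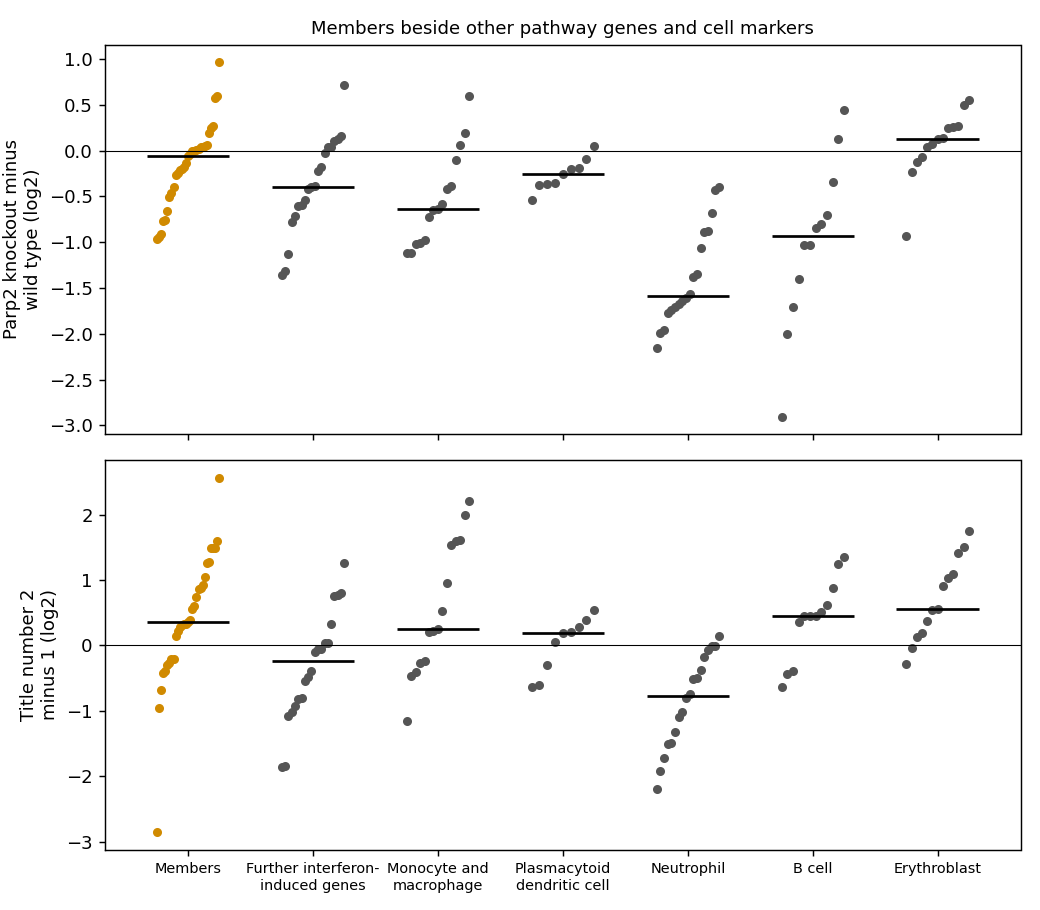
Difference between genotypes (upper panel) and between title numbers (lower panel), log2, for each gene (points, sorted by value) of the members and of 6 other lists, with a bar at each list's median. By genotype the median is -0.06 for the members and -1.59 for neutrophil markers, and by number it is +0.36 for the members, +0.55 for erythroblast markers and -0.24 for further interferon-induced genes.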

How the data were processed

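A single table was deposited by the authors, in log2 units, with 35511 probe sets by 4 arrays. RMA, limma and R 3.0.2 are listed in the submitters' processing notes, with their roles not given there. RMA summarises background-corrected, quantile-normalised values, which compresses differences of dim probe sets. Over the annotated probe sets the deposited arrays did not share a common distribution, with interquartile ranges from 1.98 to 2.94. Labelling began from 100 ng of total RNA, per the labels' protocols.

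The array's annotation names a single gene for 21789 probe sets, several genes for 1621 and no gene for 12101. The 23410 annotated probe sets were tested with limma 3.58.1 in R 4.3.3 (lmFit, eBayes, 2 arrays against 2, no block), by genotype and, separately, by the closing number of the titles. Benjamini-Hochberg adjustment ran over all of them, and an adjusted p under 0.05 was a call. The fit was tested on simulated data. Alternatives were a block for the title number or the genotype, each array left out in turn, centring, repeated quantile normalisation, a floor on the mean, other moderation, array weights, all probe sets, other thresholds and averaging a gene's probe sets. Lists are described by counts, medians and sums of unlogged signals, without a test of any list as a whole. Single genes of the lists carry the p-values of the same fits. All members are named, and of other pathway genes the 3 of lowest p and those past the test (1 further gene of that rule is not reported here); other names were chosen after their values were seen. RefSeq promoter windows (GRCm38.p6) were searched for motifs; no build is named for the array design in the sources used here. Members and lists were chosen with earlier results of these data known. Precision is limited by having 4 arrays.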

Additional observations from a re-analysis of the deposited data

How the results depend on the processing

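By genotype the number of called probe sets (0) was 274 with the replicate block, 8 with trended and robust moderation, 486 at an unadjusted p under 0.05, and 0 to 62 with 1 array left out. The count of members (0) was 0 to 1 with 1 array left out and 2 without adjustment, and it stayed 0 with the replicate block. The members' genotype median was -0.50 to 0.20 with 1 array left out, and their count without overlap 15 to 23, where fewer arrays make overlap rarer by construction.

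By title number the count of probe sets (724) was 2121 with genotype added (the replicate block in reverse), 2190 with trended and robust moderation, 10 with array weights, 1648 at an adjusted p under 0.1, 4202 without adjustment and 0 after centring, after repeated normalisation and over all 35511 probe sets. It was 0 to 1178 with 1 array left out. The count of members (2) was 8 with that block (which leaves 1 residual degree of freedom), 6 with trended and robust moderation, 5 with the mean over probe sets or at an adjusted p under 0.1, 12 without adjustment, 0 to 5 with 1 array left out, and 0 after centring, after repeated normalisation, among brighter probe sets (mean log2 of at least 5), with array weights and over all 35511 probe sets. The brighter probe sets held only 25 of the members. Ifi205, with a mean of 4.74 in each genotype, was not among them, so that its call could not be repeated there. The cause of these changes in count was not tested. Whether the numbers pair the arrays is unknown, since only 2 pairs share a number; their 2-minus-1 differences correlated at 0.468 across probe sets.

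Signs turned for differences above their own SE in 5 cases. With 1 array left out the genotype difference ranged from -0.98 to 0.049 for Stat2, from -2.41 to 0.60 for Ifit3 and from -0.11 to 1.29 for Xaf1, and the number difference of Zbp1 from -1.39 to 0.030. Bst2 by number was 0.024 after repeated normalisation. For the members without overlap by title number, the other settings were chosen after seeing the data.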

Other observations

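Among nucleases that clear the cell's own nucleic acid, none passed limma's test by title number. The 3 subunit genes of RNase H2 read lower without overlap on the arrays numbered 2, as did 22.2% of all probe sets, Rnaseh2a at 8.45 and 8.14 against 7.64 and 7.87, Rnaseh2b at 8.80 and 8.70 against 8.27 and 7.86, and Rnaseh2c at 10.6 and 10.6 against 9.48 and 9.26. Dnase2a, the lysosomal nuclease with which island macrophages digest expelled erythroblast nuclei, read higher there, at 7.82 and 7.70 against 6.83 and 7.07. Trex1, the cytosolic exonuclease, read 5.67 to 6.13 on the 4 arrays.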
